A study of Mus musculus with 8 samples.

Results

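Among 6478 tumour cells of 2 brain allografts, 630 carried at least 3 unique molecular identifiers (UMIs, each standing for a captured transcript) of 6 interferon-stimulated genes, Isg15, Ifit1, Ifit3, Bst2, Rsad2 and Usp18. A cell counted as a tumour cell when it had at least 500 detected genes, at most 10% mitochondrial UMIs and at least 0.2% of its UMIs from the eGFP reporter and the oncogene Mycl. The members were 198 of 2418 tumour cells in brain replicate 1 and 432 of 4060 in brain replicate 2. They were compared with the 1783 and 2980 tumour cells of the same libraries that had no UMI of any of the 6 genes, and another 437 and 648 cells with 1 to 2 UMIs lay between. The whole series held 34719 tumour cells among 38460 deposited cells.

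The libraries were single-cell 3' RNA profiles of N2N1G, an established line of mouse small cell lung cancer cells with a neuroendocrine character. All groups shared the line, a transplant of 1000000 cells per graft and harvest after 3 weeks. Brain grafts (n = 2) and subcutaneous flank grafts (n = 3) had been injected directly, and liver grafts (n = 3) had been seeded through the tail vein, so route and site cannot be told apart in comparisons with liver. The tumours were dissociated and healthy cells were sorted by flow cytometry. N2N1G is a single line, and the labels name neither the host strain nor whether each replicate came from its own mouse. The p-values therefore speak for these libraries only. Within brain, where the library was a block, they set the difference between classes against a spread that edgeR drew in large part from all genes together. They do not measure how far a single gene disagreed between the 2 libraries. Across sites the spread is that between libraries of a site, again shared in part across genes.

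Interferons are secreted proteins that warn cells of infection or damage. Type I and type III interferons act through receptors coupled to the kinases JAK1 and TYK2, which activate a complex holding STAT2 and IRF9 that binds the interferon-stimulated response element (ISRE) in promoters, while interferon gamma acts mainly through gamma-activated sites (GAS). In the brain, microglia, the resident macrophages, respond to interferon readily, so their transcripts were followed beside those of the tumour cells. Of the rule genes, Isg15 encodes a ubiquitin-like modifier, Usp18 the protease that removes it and also dampens receptor signalling, Ifit1 and Ifit3 proteins that bind foreign RNA, Rsad2 the antiviral enzyme viperin, and Bst2 tetherin, which holds budding virus at the cell surface.

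Because the cells were chosen by these genes, the promoters of 4 of them are shown, with every match to the ISRE core on either strand in capitals. The core searched was GAAA, any 2 bases, then GAAA. The windows run from 250 bases before to 50 bases after the RefSeq start (GRCm38.p6), read 5' to 3' along the gene's own strand. They lie at chr4:156200769-156201068 (minus strand, Isg15), chr19:34640639-34640938 (plus, Ifit1), chr12:26456403-26456702 (minus, Rsad2) and chr8:71537423-71537722 (minus, Bst2).
Isg15: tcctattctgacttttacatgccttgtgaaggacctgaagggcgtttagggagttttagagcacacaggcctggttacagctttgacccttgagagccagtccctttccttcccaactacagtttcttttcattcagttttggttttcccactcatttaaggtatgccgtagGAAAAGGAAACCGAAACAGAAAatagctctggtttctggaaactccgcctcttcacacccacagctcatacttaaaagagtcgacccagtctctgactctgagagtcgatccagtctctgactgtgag
Ifit1: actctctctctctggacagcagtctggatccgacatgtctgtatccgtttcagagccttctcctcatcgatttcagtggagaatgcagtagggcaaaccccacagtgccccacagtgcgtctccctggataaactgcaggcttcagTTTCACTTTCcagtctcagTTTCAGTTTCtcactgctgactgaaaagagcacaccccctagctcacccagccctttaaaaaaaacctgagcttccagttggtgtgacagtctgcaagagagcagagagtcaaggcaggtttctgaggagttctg
Rsad2: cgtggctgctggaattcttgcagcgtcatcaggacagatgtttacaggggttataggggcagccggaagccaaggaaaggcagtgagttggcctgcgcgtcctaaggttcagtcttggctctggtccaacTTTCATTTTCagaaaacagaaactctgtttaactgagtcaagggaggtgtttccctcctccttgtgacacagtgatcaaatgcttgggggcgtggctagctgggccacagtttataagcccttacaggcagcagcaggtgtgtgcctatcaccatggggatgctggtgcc
Bst2: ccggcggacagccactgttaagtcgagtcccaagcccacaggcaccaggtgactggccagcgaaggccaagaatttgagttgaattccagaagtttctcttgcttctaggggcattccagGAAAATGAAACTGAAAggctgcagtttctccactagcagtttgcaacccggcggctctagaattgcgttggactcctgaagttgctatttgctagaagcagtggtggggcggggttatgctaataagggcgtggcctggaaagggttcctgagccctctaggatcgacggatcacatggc
Matches that overlap run together, as in Isg15 with 3 and Bst2 with 2. All 5 rule genes with an entry in the promoter table held at least 1 match, while 1131 of 32851 promoters of this length (3.44%) did. The GAS core, TTC, any 3 bases, then GAA, which reads the same on both strands, was found in 1 of the 5 genes (Bst2) and in 2726 of all promoters (8.30%). Among the other interferon genes followed here, 68 of 89 had an entry, and an ISRE core was present at any of their listed starts in 30 of the 68 (44.1%), against 1079 of 27025 gene symbols (3.99%). GTPase genes of that list held it in 9 of 10 cases, genes of MHC class I presentation in 5 of 16. A match in such a window is a match of letters and says nothing of binding.

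The rule genes chose the members, so their levels are given as a description with no test. Levels are counts per 1000000 UMIs (CPM) of the cells of a class summed within a library. Bst2 (chr8:71534255-71537456, minus strand) stood at 591 CPM in members of brain 1 and 912 CPM in those of brain 2, against 56.6 and 60.02 CPM in cells with 1 to 2 rule-gene UMIs. Usp18 (chr6:121245906-121270917) stood at 256 and 307 CPM in members and 39.0 and 39.5 CPM in the middle class. Bst2 and Usp18 together carried most of the rule: 56.3% and 24.4% of the members' rule-gene UMIs in brain 1 and 65.4% and 21.97% in brain 2. Isg15 gave 62.6 and 42.7 CPM in members, Ifit1 65.1 and 89.4, Rsad2 52.3 and 36.3, and Ifit3 23.7 and 8.04. The class of 0 had no UMI of any of them by construction. Ifit3, a defining marker of such cells, was seen in only 20 of the 198 and 21 of the 432 members, and Isg15 in 39 and 40, whereas Bst2 was seen in 171 and 393.

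Members varied widely in how strongly they carried the signature. The median sum was 5 UMIs in brain 1 and 7 in brain 2, and the highest was 112 and 171. Of the members, 40 and 75 (20.2% and 17.4%) showed UMIs of 1 rule gene only, and 38.9% and 36.8% showed at least 3 of the genes. Just inside the threshold, at a sum of 3, lay 38 and 80 cells, and just outside, at a sum of 2, lay 89 and 147. The summed level of the 89 other interferon genes was 3313 and 2817 CPM at a sum of 3, and 2585 and 2240 CPM at a sum of 2. Members held 9.35% of the tumour-cell UMIs of brain 1 and 11.2% of those of brain 2. Of the rule-gene UMIs of brain 1 they held 87.4% for Ifit1, 83.1% for Bst2, 76.5% for Isg15, 75.5% for Usp18, 75.2% for Rsad2 and 69.6% for Ifit3. In brain 2 the shares were 96.0%, 90.9%, 88.6%, 83.6%, 68.4% and 61.4%. The threshold itself contributes to these shares.

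Cells of this kind were rare outside the brain. Their share of tumour cells was 8.19% (95% exact binomial interval 7.13% to 9.35%) and 10.6% (9.71% to 11.6%) in the brain libraries, a mean of 9.41% ± 1.73 (SD, n = 2). Liver libraries had 3, 3 and 2 such cells, 0.0424% to 0.0729% of their tumour cells. Subcutaneous replicates 2 and 3 had 2 each (0.0319% and 0.0417%), and subcutaneous replicate 1 had 20 (0.482%, interval 0.295% to 0.743%), of which 6 also carried UMIs of 3 or more macrophage markers. The brain libraries lay above all 6 others with no overlap of the intervals. No test is given, since the rule and the site were chosen with this difference known, and the intervals cover counting error only.

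The median tumour cell had 7972 and 8409 UMIs in brain and 9250 to 10542 elsewhere. After thinning every cell to 3000 UMIs, which left out 156 and 48 brain cells and 61 to 180 cells of each other library, 14.9% and 16.2% of brain tumour cells kept at least 1 rule-gene UMI. The same share was 0.589% to 0.765% in liver and 0.688% to 2.03% in subcutaneous libraries. The share with 3 or more fell to 4.43% and 5.99% when Bst2 was left out of the sum.

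**Figure D1:**
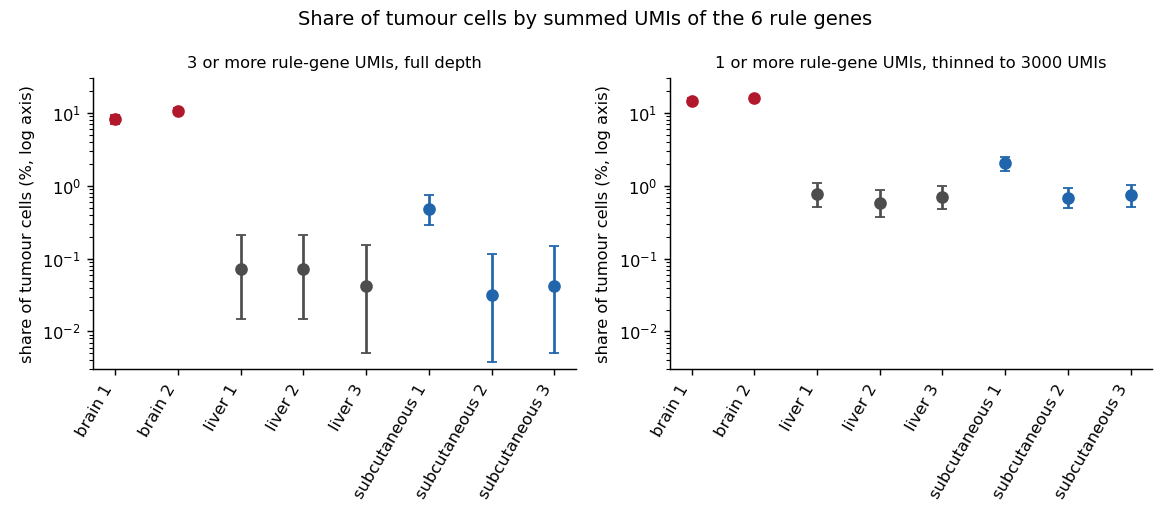
Share of tumour cells with 3 or more rule-gene UMIs at full depth (left) and with 1 or more after thinning to 3000 UMIs (right), per library, on a log axis. Points are libraries and bars are 95% exact binomial intervals; both brain libraries lie above 8% on the left, and each liver and subcutaneous library lies below 0.5%.

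The libraries held 27140735 and 40564657 UMIs in brain and 43328650 to 63049542 elsewhere. Any pair of libraries shared 20 to 56 cell barcodes, at most 1.16% of the smaller library, and the brain pair shared 21. Members resembled the other tumour cells in size: their median depth was 8907 UMIs against 7705 for the class of 0 in brain 1, and 8355 against 8386 in brain 2. The reporter eGFP, which belongs to the tumour rule and so gets no test, stood at 4673 and 4936 CPM in members and 3023 and 3156 CPM in the class of 0. Mycl, the other gene of that rule, stood at 3705 and 2971 CPM in members and 5451 and 4457 CPM in the class of 0. Chga, a neuroendocrine marker, was present in members at 482 and 433 CPM.

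Brain 1 stood apart in its content of host RNA. Of its tumour cells with a sum of 0, 32.3% carried UMIs of 3 or more of 14 macrophage or microglia markers, against 1.95% in brain 2. Among members the share was 44.4% (88 of 198) and 3.70% (16 of 432). The 14 markers together reached 2304 CPM in members and 394 CPM in the class of 0 in brain 1, and 271 and 101 CPM in brain 2, with none of the 14 at 0 in either class. In the comparison of the classes 10 of the 14 were called higher. Results below are therefore also given without the cells that carried 3 or more of these markers, an alternative chosen after seeing the data. These are the cells meant below by cells carrying macrophage markers, and cells with 1 or 2 markers stayed in. A UMI of any marker was present in 89.4% of members and 83.7% of the class of 0 in brain 1. In brain 2 it was present in 47.0% and 46.5%. Without the cells that carried 3 or more, the 13 markers tested had a median log2 fold change of -0.19 and 1 of them was called lower. Leaving out cells by these same markers limits them in both classes, so this value does not show that host RNA was removed. Neutrophil, endothelial and oligodendrocyte genes differed mainly in brain 1: the summed level in the class of 0 and in members was 24.8 and 255 CPM for 4 neutrophil genes, 13.7 and 96.7 CPM for 7 endothelial genes and 229 and 355 CPM for 6 oligodendrocyte genes, and in brain 2 it was 5.92 and 9.42, 3.32 and 2.99, and 168 and 107 CPM. The 5 T and NK cell genes were higher in members of both libraries, at 0.456 CPM in the class of 0 and 3.45 CPM in members of brain 1 and at 0.505 and 2.07 CPM in brain 2. The members' values rest on 7 and 9 UMIs. No doublet caller was run, and pairs of a tumour cell and a host cell in a droplet were not removed otherwise.

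Members were also set beside the host cells of the same library, 848 and 263 cells below the reporter threshold with UMIs of 3 or more macrophage markers. The 14 macrophage markers stood in members at 1.83% to 8.43% of their host level in brain 1 and at 0.243% to 1.82% in brain 2. Of 78 other interferon genes with at least 10 host UMIs in each library, 13 were higher in members than in host cells in both libraries, among them Oasl1 (372% and 223%), Ifi27 (351% and 623%) and Trim25 (224% and 241%), and 63 were lower in both. The members were chosen for high rule-gene counts and the host cells were not, so the rule raises the members' side for its 6 genes. It can also raise that side for other interferon genes that vary with them, the 13 included. All these values are only a description. Usp18 stood at 515% and 431% of its level in the host cells, Bst2 at 154% and 233%, Ifit1 at 135% and 382%, Rsad2 at 114% and 113%, Isg15 at 24.96% and 17.0% and Ifit3 at 20.7% and 15.7%. The chemokine Ccl5 (8.68% and 0.180%) lay just above the range of the macrophage markers in brain 1 and below it in brain 2.

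**Figure D2:**
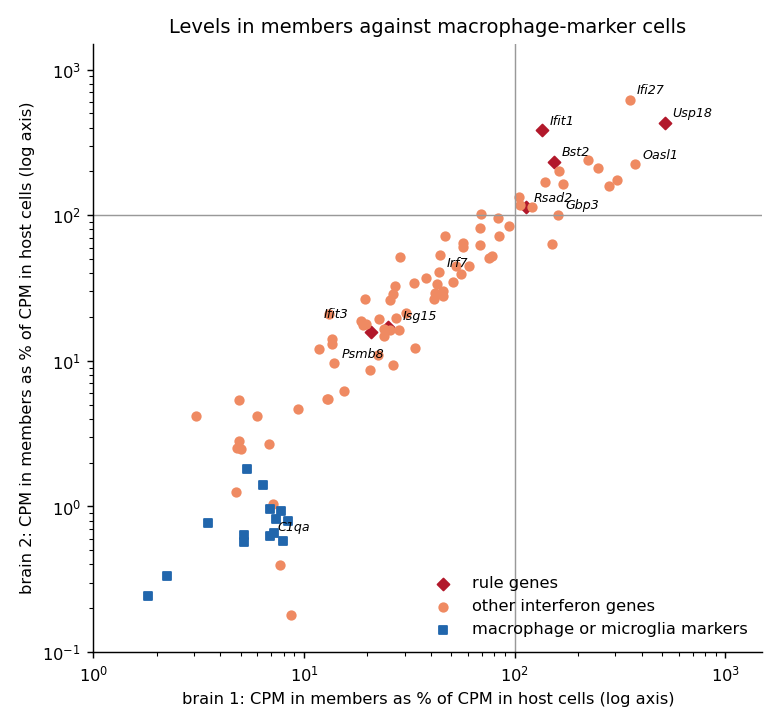
Level in members as a percentage of the level in macrophage-marker host cells of the same library, brain 1 on the horizontal and brain 2 on the vertical log axis, for the 6 rule genes, 77 other interferon genes and 14 macrophage or microglia markers with values above 0. Grey lines mark 100%, and Oasl1 and Ifi27 are among the 13 genes outside the rule beyond both lines. The position of the 6 rule genes is set in part by the rule, which can also raise the other interferon genes. All 14 markers lie below 10% in brain 1 and below 2% in brain 2.

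Outside the 6 genes that chose them, members carried a broad interferon programme. Of 89 other interferon genes in the files, 80 could be tested, and 75 were higher in members than in the class of 0 while 1 was lower, at an adjusted p under 0.05. Over all 11869 genes tested, 1991 were higher and 1862 lower, so that 16.8% of genes were called higher and 15.7% lower (32.5% in either direction). The median log2 fold change of the list was 3.22, against -0.01 over all genes. In 78 of the 80 genes the members were higher in both libraries, against 4183 of all 11869. The filter on low counts can admit a gene through its level in members alone, so the 80 genes are partly chosen by that level. Without the filter 77 of 89 listed genes were higher and 1 was lower. Of all 16699 genes then tested, 1945 were higher and 2079 lower. Cells chosen by interferon genes also tend to be high in genes that vary with them, so the list describes how far the programme reached. Counts were summed per library and class and fitted with edgeR with the library as a block (6 sums, 2 residual degrees of freedom), so the p-values rest on 2 libraries. The total of called genes, 3853, moved with the method. DESeq2 called 1606 of 16699 (9.62%, with 5.38% higher), and 74 of 89 listed genes were higher. Without the library block 942 were called (7.94%, with 4.51% higher), and 60 listed genes were higher.

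Without the cells that carried 3 or more macrophage markers, 65 of 71 listed interferon genes tested were higher, 1 was lower, and their median log2 fold change was 2.96; 14.4% of all 11511 genes tested were called higher there, 13.4% lower and 27.9% in either direction. The stricter setting, planned beforehand, left out every cell with a macrophage marker UMI. It kept 21 members among 354 tumour cells in brain 1 and 229 among 2156 in brain 2. There 52 of 59 listed genes tested were higher and 0 lower, with a median log2 fold change of 2.43. Of all 10034 genes tested, 606 were higher and 485 lower. The 9 listed genes that could not be tested in the main comparison had too few UMIs. They were Tlr3, Ifit1bl1, Gbp2, Gbp5, Iigp1, Tgtp1, Tgtp2, Nlrc5 and Cxcl9.

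Sensors of foreign nucleic acid were higher in members in 8 of 8 cases tested. Zbp1, a sensor of left-handed nucleic acid that can trigger cell death, stood at 0.977 and 0.469 CPM in the class of 0, 3.48 and 2.71 CPM in the middle class and 18.7 and 32.9 CPM in members of brain 1 and brain 2. The members of both libraries lay above both other classes, with a log2 fold change against 0 of 5.31 ± 0.31 (SE, adjusted p = 1.7e-14). Within the single libraries the log2 difference was 4.13 in brain 1 and 5.98 in brain 2. The RNA helicases Ddx58, which encodes RIG-I, and Ifih1, which encodes MDA5, had log2 fold changes of 3.80 and 3.56. Mb21d1, the DNA sensor cGAS, was already at 12.05 and 12.9 CPM in the class of 0 and reached 27.1 and 36.8 CPM in members (log2 fold change 1.38 ± 0.14, SE). Tmem173, which encodes STING, the adaptor downstream of cGAS, stood at 6.41 and 2.99 CPM in members against 1.24 and 1.51 CPM (1.54). Its log2 fold change was 0.70 without the cells carrying macrophage markers and no longer passed (adjusted p = 0.41), and 7 of the 8 sensors did.

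All 5 transcription factors of the list were higher. Irf7 (chr7:141262706-141266481), the factor that amplifies type I interferon production, stood at 3.19 and 1.66 CPM in the class of 0, at 9.28 and 6.63 CPM in the middle class and at 100.1 and 95.8 CPM in members. Its levels in the members of the 2 libraries nearly coincided, and the log2 fold change was 5.42 ± 0.15 (SE, adjusted p = 1.54e-26). Within the single libraries the log2 difference was 4.89 in brain 1 and 5.80 in brain 2. Irf9 (chr14:55603571-55610030), the DNA-binding part of the ISRE complex, rose from 4.89 and 4.29 CPM to 33.1 and 50.8 CPM (3.25 ± 0.17, SE). Stat2, its partner in that complex, changed least of the 5 factors, from 7.49 and 8.80 CPM to 12.8 and 17.9 CPM (0.92 ± 0.18, SE). Irf1, a factor typical of the response to interferon gamma, reached 36.5 and 28.7 CPM from 14.3 and 9.38 CPM (1.47 ± 0.14, SE).

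Antiviral effectors were called higher in 35 of 39 cases. Among genes outside the rule with at least 10 CPM in members of both libraries, the 12 largest increases were those of Oasl2, Apol9a, Ifi44, Phf11d, Gbp3, Apol9b, Oasl1, Irf7, Zbp1, Oas1a, Rtp4 and Gbp7, with log2 fold changes from 6.81 down to 4.89, and 10 of them belong to the list. Oasl1, a regulator of Irf7 translation related to the oligoadenylate synthetases, had 17 and 22 UMIs in the class of 0 and 124 and 219 in the fewer members, that is 1.11 and 0.794 CPM against 61.2 and 50.3 CPM (5.85 ± 0.20, SE). Oasl2 had only 6 and 2 UMIs in the class of 0 and 53 and 91 in members, so the size of its fold change is poorly fixed. Apol9a and Apol9b, close copies of each other whose reads may be shared, reached 54.3 and 46.4 CPM and 50.8 and 36.3 CPM in members. Rtp4, an interferon-induced chaperone for receptor transport, stood at 2.87 and 1.41 CPM in the class of 0 and at 66.6 and 67.6 CPM in members. Ifi27l2a reached 369 and 192 CPM in members from 17.7 and 6.38 CPM (4.59 ± 0.10, SE).

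The list was not raised throughout. Genes of the Ifitm family, which encodes proteins that block virus entry, were not called higher: Ifitm2 stood at 372 and 315 CPM in members and 367 and 364 CPM in the class of 0, and was called lower (-0.14 ± 0.05, SE, adjusted p = 0.0336). Ifitm3 stood at 359 and 217 CPM against 97.2 and 108 CPM (adjusted p = 0.0942), and Ifitm1 at 37.5 and 43.2 CPM against 7.75 and 1.41 CPM (adjusted p = 0.122). Without the cells carrying macrophage markers, the log2 fold change of Ifitm1 was 0.69 in place of 3.48, and Ifitm3 passed the threshold at 1.03. Znfx1 was not called either, with 2.96 and 2.07 CPM in members against 3.19 and 2.20 CPM.

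The interferon-inducible GTPases, which attack vacuoles of intracellular pathogens, were higher in 8 of 8 cases tested. Gbp3 stood at 0.847 and 0.649 CPM in the class of 0, 2.55 and 3.32 CPM in the middle class and 46.4 and 59.3 CPM in members (6.18 ± 0.21, SE, adjusted p = 1.24e-27). Igtp, also called Irgm3, rose from 1.56 and 1.80 CPM to 37.98 and 51.9 CPM (4.73 ± 0.19, SE), and Irgm1 from 3.58 and 2.63 CPM to 55.7 and 36.5 CPM (3.83 ± 0.17, SE).

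Transcripts for antigen presentation on MHC class I were higher in members at most of its steps, in 16 of 17 genes tested. Over all genes tested, 16.8% were called higher. The heavy chain gene H2-K1 (chr17:33996017-34000347) stood at 32.7 and 22 CPM in the class of 0, 67.1 and 45.7 CPM in the middle class and 241 and 118 CPM in members (2.61 ± 0.09, SE, adjusted p = 1.85e-21). Its counterpart H2-D1, with 199 and 154 CPM in the class of 0, reached 664.5 and 374 CPM (1.47 ± 0.09, SE). The peptide transporter genes Tap1 and Tap2 had log2 fold changes of 3.60 and 2.83. Psmb8 and Psmb9, catalytic subunits of the immunoproteasome, had 3.50 and 3.53, while the third such subunit, Psmb10, rose by 0.43 ± 0.12 (SE) from a level of 24.6 and 26.3 CPM. B2m, the light chain shared by all class I molecules, stood at 753 and 275 CPM in members and 142 and 94.8 CPM in the class of 0 and narrowly missed the threshold (1.94 ± 0.29, SE, adjusted p = 0.0517). Without the cells carrying macrophage markers all 17 genes were higher, B2m included (1.38), while its level was highest in the library with more host RNA. Members of the H2-Q and H2-T families are near copies of each other, and how their reads were divided is not known.

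**Figure D3:**
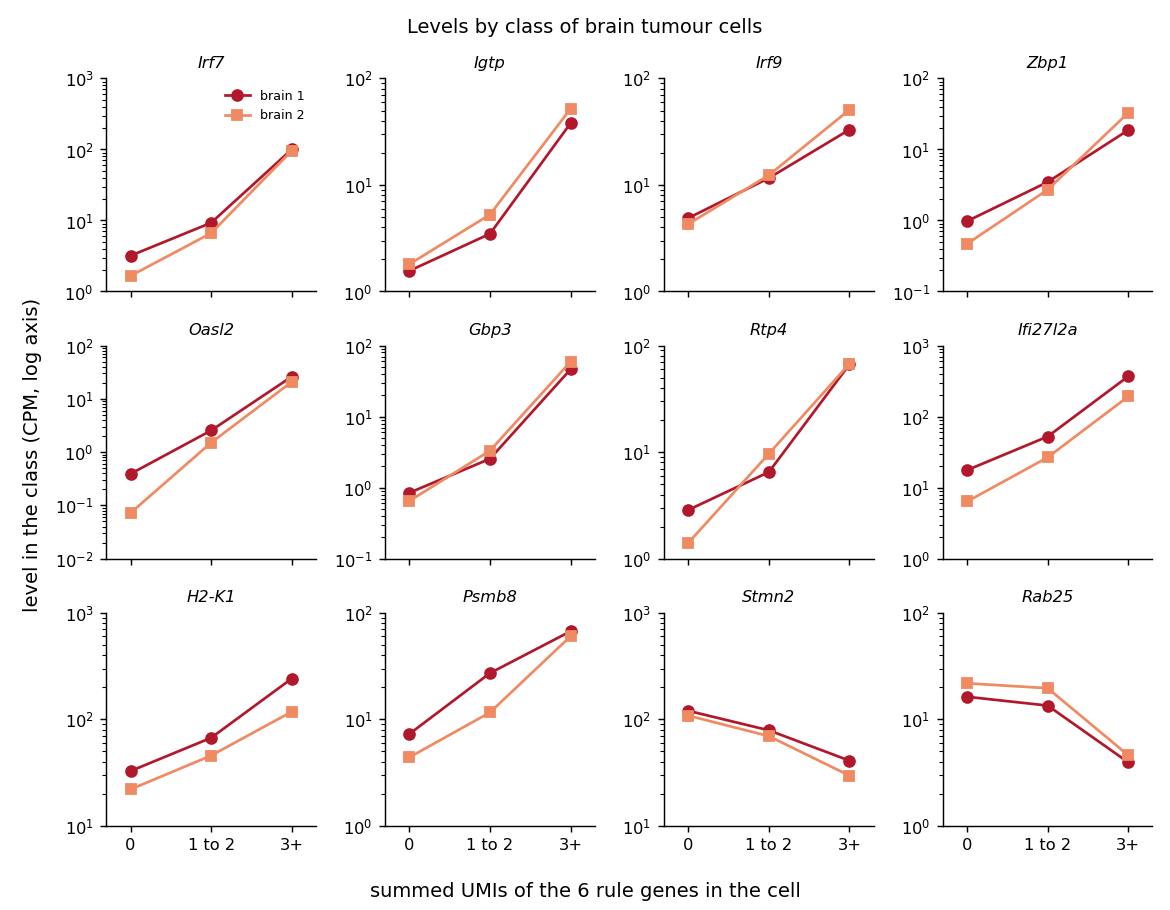
Level in CPM (log axis) of 12 genes in tumour cells of brain 1 and brain 2 with a rule-gene sum of 0, 1 to 2 or 3 or more. Each point is the summed count of a class in a library; the 10 interferon genes rise over the classes in both libraries, Irf7 from 3.19 and 1.66 CPM to 100.1 and 95.8 CPM, while Stmn2 and Rab25 decline.

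Chemokine genes of the list could be tested in 3 cases, and they differed between the libraries. Cxcl10, which draws activated T cells, stood at 23.7 and 10.8 CPM in members against 1.43 and 0.866 CPM, and its log2 fold change was 3.79, or 3.36 without the cells carrying macrophage markers. Ccl5 stood at 72.0 CPM in members of brain 1 but 1.15 CPM in those of brain 2, and its log2 fold change went from 2.41 to -0.27 (adjusted p = 0.747) without those cells. Ccl2 behaved likewise in the libraries, at 19.7 and 0.460 CPM. MHC class II presents peptides on professional antigen-presenting cells. Its gene H2-Aa stood at 162 and 73.3 CPM in members and 31.1 and 15.3 CPM in the class of 0 (2.28), but its log2 fold change was 0.11 without the cells carrying macrophage markers and -0.04 in cells with 5000 to 15000 UMIs. Of 6 class II genes tested, 3 were called higher with all cells, and the median log2 fold change was 2.02 with all cells and 0.11 without the marker-carrying cells. Of 8 NF-kB targets, 5 were higher with all cells, and 1 of 5 without the marker-carrying cells. Tnf stood at 7.40 CPM in members of brain 1 and had no UMI in those of brain 2. Over all genes tested, 16.8% were called higher with all cells and 14.4% without the marker-carrying cells.

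Transcripts of interferons themselves were hardly seen in the tumour cells. The 10 interferon genes listed, among them Ifnb1, Ifna4 and Ifng, gave 0 UMIs in members and in the class of 0 of both libraries, and 1 UMI (Ifnk) in the middle class of brain 1. For members, 0 UMIs allow a level of up to 1.48 CPM in brain 1 and 0.69 CPM in brain 2 for the list (3 counts of 2027185 and 4350914). The macrophage-marker host cells held 10 UMIs of them in brain 1 and 1 in brain 2.

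The receptor side was present in all classes. Ifnar1 and Ifnar2, the chains of the type I receptor, stood at 19.2 and 19.3 CPM and at 11.3 and 11.7 CPM in members, against 14.98 and 14.3 CPM and 9.18 and 10.5 CPM in the class of 0, and neither was called. Jak1, the kinase shared by the interferon receptors, rose from 18.04 and 17.1 CPM to 27.1 and 28.0 CPM (0.64 ± 0.14, SE, adjusted p = 0.000168), and Ifngr1 and Ifngr2 had log2 fold changes of 0.43 and 0.54, which became 0.12 and 0.31 without the cells carrying macrophage markers. The type III receptor chain Ifnlr1 had no UMI in members. Of 5 negative regulators tested, 3 were higher, where 16.8% of all genes were. Socs1, an inhibitor of JAK kinases, rose from 2.48 and 2.67 CPM to 8.39 and 8.504 CPM (1.67 ± 0.29, SE). Adar, which edits self RNA (1.07), and Socs3 (0.77) were the others.

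Among 8 cell death genes tested, 3 were called higher, where 16.8% of all genes were. Mlkl, the executor of necroptosis, stood at 7.89 and 10.8 CPM in members against 1.76 and 2.92 CPM (1.94 ± 0.29, SE), Gsdmd, the pore-former of pyroptosis, at 5.43 and 2.99 CPM against 1.43 and 1.37 CPM (1.43 ± 0.45, SE), and Bid changed by 0.44. Without the cells carrying macrophage markers Gsdmd had 0.90 and did not pass (adjusted p = 0.232), which left 2 of the 8. In the cells with no UMI of En1 or Des, markers of a tumour subpopulation, the edgeR fit called 0 of the 8, with 3 at an unadjusted p under 0.05 and a median log2 fold change of 0.47, against 0.31 with all cells. Bax, Bbc3 and Pmaip1, which act in mitochondrial apoptosis, differed by -0.06 to 0.05 on the log2 scale and were not called. Immediate early and heat shock genes were higher in 7 and lower in 2 of 11 cases, with a median log2 fold change of 0.39. Without the cells carrying macrophage markers 5 were higher and 2 lower, with a median of 0.09. Without the library block 2 were higher and 1 was lower. Junb stood at 2054 and 1517 CPM in members against 819.5 and 592 CPM (1.31 ± 0.05, SE), and Fos, Egr1 and Ier2 also rose, whereas Jun fell (-0.49) and so did the small heat shock gene Hspb1 (-3.33), which had 34 and 106 UMIs in the class of 0 and 1 UMI in the members of each library. Genes of the amino acid stress response were called higher in 2 of 7 cases. Of 8 hypoxia genes 1 was higher (Slc2a1, a glucose transporter, 1.14) and 3 were lower. Beside the counts of these lists, 16.8% of all genes were called higher and 15.7% lower. Without the cells carrying macrophage markers 14.4% were called higher and 13.4% lower. The share called higher was 4.51% without the library block and 7.40% in cells without En1 or Des.

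**Figure D4:**
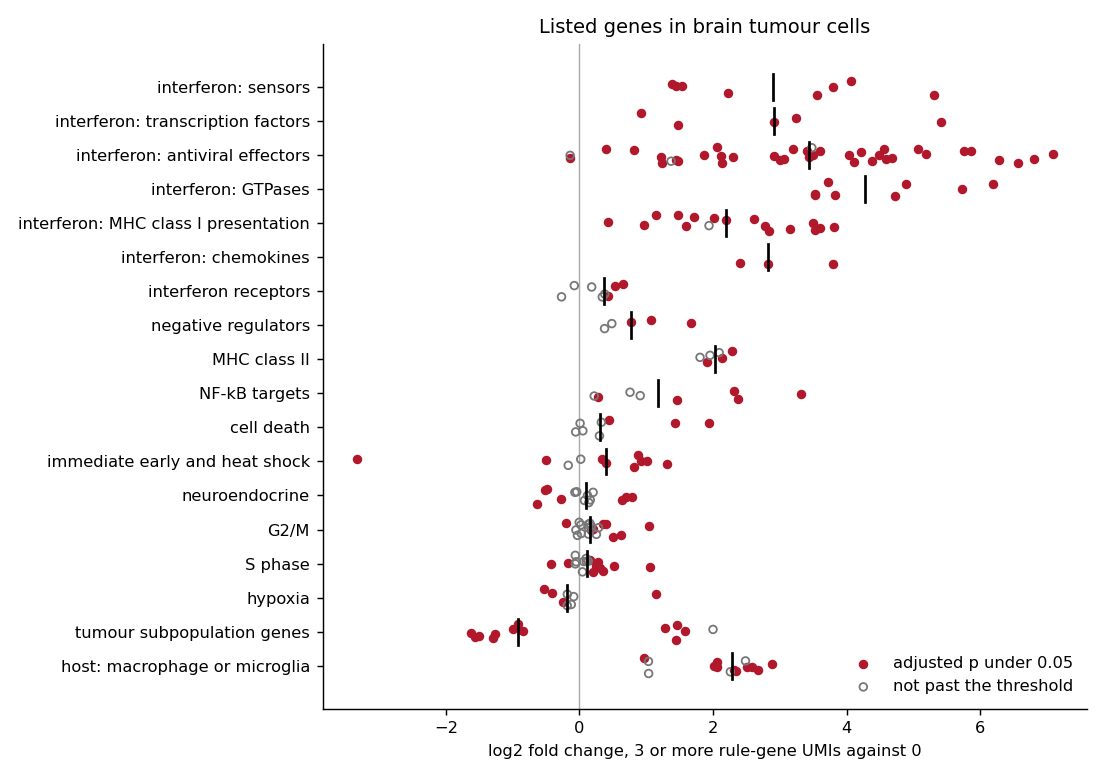
Log2 fold change of members against cells with a rule-gene sum of 0 for the genes of 18 groups in the edgeR fit; filled points passed an adjusted p under 0.05, open points did not, and black bars are medians. The interferon groups lie mostly above 1, with a median of 4.28 for the GTPases, while the subpopulation genes split into 4 called higher and 8 called lower.

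Members also differed from other tumour cells in genes outside the interferon response. Among genes with at least 10 CPM in the class of 0 of both libraries, the 12 largest decreases were those of Rab25, Gpc3, Syt5, Tspan1, Dsp, Calb1, Tmem184a, Prom2, Bspry, Stmn2, Gabrd and Col18a1, with log2 fold changes of -2.21 to -1.74. Rab25, a regulator of membrane recycling in epithelial cells, stood at 16.3 and 21.8 CPM in the class of 0 and 3.95 and 4.60 CPM in members (-2.21 ± 0.22, SE, adjusted p = 1.31e-11). Dsp, which encodes the desmosomal protein desmoplakin, went from 21.4 and 17.96 CPM to 5.92 and 4.60 CPM (-1.95 ± 0.21, SE). Stmn2, a microtubule regulator of growing neurites, had 120 and 108 CPM in the class of 0, 78.9 and 69.5 CPM in the middle class and 40.9 and 29.6 CPM in members (-1.78 ± 0.09, SE). Syt5, a calcium sensor of vesicle release, and Gabrd, a subunit of the GABA receptor, had -2.00 and -1.75. The choice of the 12 required members of both libraries to lie below the class of 0. In these genes the members of both libraries also lay below the middle class, which the choice of the largest decreases makes likely. All 12 were also called lower without the cells carrying macrophage markers. That fit used part of the cells by which the 12 were picked, so it is no independent evidence.

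A set of 13 genes that mark subpopulations of these tumours, taken from earlier results of these data, divided into higher and lower genes. En1, a homeobox factor, stood at 33.9 and 30.2 CPM in the class of 0, 64.5 and 62.7 CPM in the middle class and 85.8 and 89.4 CPM in members (1.45 ± 0.09, SE), and Des, the intermediate filament desmin, at 24.3 and 34.0, 52.2 and 67.3, and 67.1 and 79.5 CPM (1.28 ± 0.09, SE). Tm4sf1 and Lnx1 were also higher (1.58 and 1.45), and Clca3b stood at 109 and 125 CPM in members against 37.6 and 23.7 CPM (2.00 ± 0.33, SE, adjusted p = 0.0616). Sftpc, surfactant protein C, Htr3a, a serotonin-gated channel, Tfap2a, Cldn7, Isl1, Sfrp5, Rem2 and Galnt14 were lower, Sftpc from 256 and 223 CPM to 95.7 and 78.8 CPM (-1.50 ± 0.06, SE). Since this list came from these samples, its direction is no independent evidence.

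The members' share differed with En1 and Des. Among tumour cells with at least 1 UMI of either gene, 125 of 656 in brain 1 (19.1%, exact binomial interval 16.1% to 22.3%) and 301 of 1335 in brain 2 (22.5%, 20.3% to 24.9%) were members. Among those with none, 73 of 1762 (4.14%, 3.26% to 5.18%) and 131 of 2725 (4.81%, 4.03% to 5.68%) were, with median depths of 8132 against 7822 UMIs in brain 1 and 7896 against 8635 in brain 2. Within the cells with no UMI of En1 or Des, an alternative chosen after seeing the data, 64 of 72 interferon genes tested were higher in members, with a median log2 fold change of 3.85, where 7.40% of all genes were called higher. The 12 genes with the largest decreases were called lower there as well, with a median of -1.43, where 4.60% of all genes were called lower. These 12 were picked in a comparison that included the same cells, so this is no independent evidence. The count of all called genes was 1307 in these fewer cells.

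Neuroendocrine genes differed in both directions. Of 14 neuroendocrine genes, 3 were higher, 4 were lower and 7 were not called. Over all genes tested, 16.8% were called higher and 15.7% lower. Insm1, a zinc finger factor of neuroendocrine cells, fell from 330 and 238 CPM to 234 and 172 CPM (-0.51 ± 0.06, SE), and Uchl1 (-0.64) and Hes6 (-0.28) were lower too. Calca, the precursor of calcitonin and its related peptide, rose from 114 and 129 CPM to 194 and 229 CPM (0.78 ± 0.06, SE), with Ddc (0.64) and Dll3 (0.69). Chga, which encodes chromogranin A, stood at 482 and 433 CPM against 469 and 448 CPM (-0.04 ± 0.05, SE) and was not called.

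Cell cycle genes gave small differences. Of 20 genes of G2 and M phase 7 were higher and 1 was lower, and of 18 genes of S phase 8 were higher and 2 were lower, with list medians of 0.16 and 0.12, where 16.8% of all genes were called higher and 15.7% lower. Cdc20, an activator of the anaphase-promoting complex, and Mcm5, a subunit of the replicative helicase, stood out at 1.05 each, with Cdc20 at 595 and 561 CPM in members against 261 and 283 CPM. The proliferation marker Mki67 was at 80.4 and 71.7 CPM against 75.8 and 72.2 CPM. In the cells without En1 or Des the edgeR fit called 0 of the 20 genes of G2 and M phase, with 4 at an unadjusted p under 0.05 and a median of -0.05. Of the genes of S phase 2 were higher and 1 was lower there, with a median of 0.19. In those cells 7.40% of all genes were called higher and 4.60% lower. DESeq2 with all cells called 2 genes of G2 and M phase higher, and 3 of S phase higher and 1 lower. It called 5.38% of all genes higher and 708 of 16699 lower.

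The middle class, with 1 to 2 rule-gene UMIs, lay between the others. Of the 80 listed interferon genes 43 were higher there than in the class of 0, with a median log2 fold change of 0.91, where 6.32% of all genes were called higher (750 of 11869). Irf7 had 1.76 ± 0.24 (SE) there, Irf9 1.39 ± 0.19 and H2-K1 1.02 ± 0.09. The counts of this class moved with the settings. With the library block edgeR called 1320 genes in all (11.1%). Without the block it called 8 (0.0674%), among them 0 of the 80 listed interferon genes, of which 42 had an unadjusted p under 0.05. DESeq2 called 271 (1.62%), with 21 of 89 listed genes higher. In cells without En1 or Des 44 were called (0.404%), with 9 of 72 listed genes higher, and with members defined from a sum of 2 the listed genes were higher in 15 of 76 cases. Finer steps of the sum were 0, 1, 2, 3, 4 to 5, 6 to 10, 11 to 20, and 21 or more. Over these steps the summed level of the interferon list was 1457, 1947, 2585, 3313, 3948, 4252, 7149 and 8984 CPM in brain 1, higher at each step. In brain 2 it was 1305, 1640, 2240, 2817, 2756, 3258, 4192 and 7701 CPM, with the step of 4 to 5 below that of 3. The macrophage markers stood at 394, 771, 1028, 2057, 1681, 2182.1, 3704 and 2185 CPM over the same steps in brain 1 and at 101, 140.5, 470.1, 60.4, 103, 336, 725 and 167 CPM in brain 2, with the highest value at 11 to 20 in both. Their part in the interferon values of these steps was not tested.

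Brain tumour cells without any rule-gene UMI were then compared with such cells of the other sites, to see whether interferon genes outside the rule differed beyond the members. This used all 8 libraries in an edgeR fit with a mean per site (5 residual degrees of freedom). Of 65 listed genes tested, 42 were higher in brain than in liver, with a median log2 fold change of 1.74, where 10.1% of all 13676 genes tested were called higher and 16.3% in either direction. Against subcutaneous grafts 31 of 65 were higher, with a median of 1.35, 6.13% of all genes called higher and 10.4% called in either direction. The contrasts share the brain libraries. The filter on low counts can admit a gene through its level in brain alone, so the 65 genes tested are partly chosen by that level. Without the filter, 44 of 89 listed genes were higher than in liver, where 1368 of all 17710 genes were. Against subcutaneous grafts 31 of 89 were higher, where 823 of all 17710 were. When all tumour cells entered, 63 and 61 of 82 were higher, where 13.2% and 8.91% of all genes were. Counts rested on single libraries, with 64 to 69 genes tested: against liver they were 16 without brain 1, 25 without brain 2, 25 without liver 1 and 24 without liver 2. Against subcutaneous they were 2 without brain 1, 14 without brain 2, 50 without subcutaneous 1, and 15 and 16 without subcutaneous 2 and 3.

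H2-K1 stood in these cells at 32.7 and 22 CPM in brain, 2.34, 2.77 and 3.14 CPM in liver and 14.6, 4.98 and 5.35 CPM in subcutaneous grafts. Its brain values lay above all others, with log2 fold changes of 3.21 against liver and 1.73 against subcutaneous. Subcutaneous replicate 1 was the highest of the other libraries in many of these genes and also had the most members outside the brain. Irf9 stood at 4.89 and 4.29 CPM in brain, 0.949 to 1.41 CPM in liver and 1.54 to 2.10 CPM in subcutaneous grafts, and Igtp at 1.56 and 1.80 CPM, 0.0433 to 0.0883 CPM and 0.0827 to 0.539 CPM. Ifi27 stood at 97.4 and 103 CPM in brain, 21.3 to 26.6 CPM in liver and 15.9 to 36.0 CPM in subcutaneous grafts. H2-D1 overlapped between the sites, with 199 and 153.7 CPM in brain, 108 to 154.4 CPM in liver and 133 to 144 CPM in subcutaneous grafts, and was not called against either (adjusted p = 0.125 and 0.172). Irf7, at 3.19 and 1.66 CPM in brain and 0.375 to 0.993 CPM elsewhere, had log2 fold changes of 1.53 and 1.98. Its level in these brain cells was still far below that of the members.

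The same cells also carried more host RNA in brain. The macrophage markers summed to 394 and 101 CPM in brain against 26.0 to 40.4 CPM in liver and 40.4 to 53.7 CPM in subcutaneous grafts, with at most 1 of the 14 at 0 in a library, and C1qa, a complement gene of macrophages, stood at 54.5 and 9.09 CPM in brain and at 1.18 CPM or less elsewhere. Without cells carrying 3 or more of the markers, 39 interferon genes of 65 were higher than in liver and 30 of 65 higher than in subcutaneous grafts, where 9.52% and 5.67% of all genes were called higher. Without cells carrying any UMI of a marker, 30 and 20 of 61 were higher, where 7.36% and 4.06% of all genes were called higher.

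**Figure D5:**
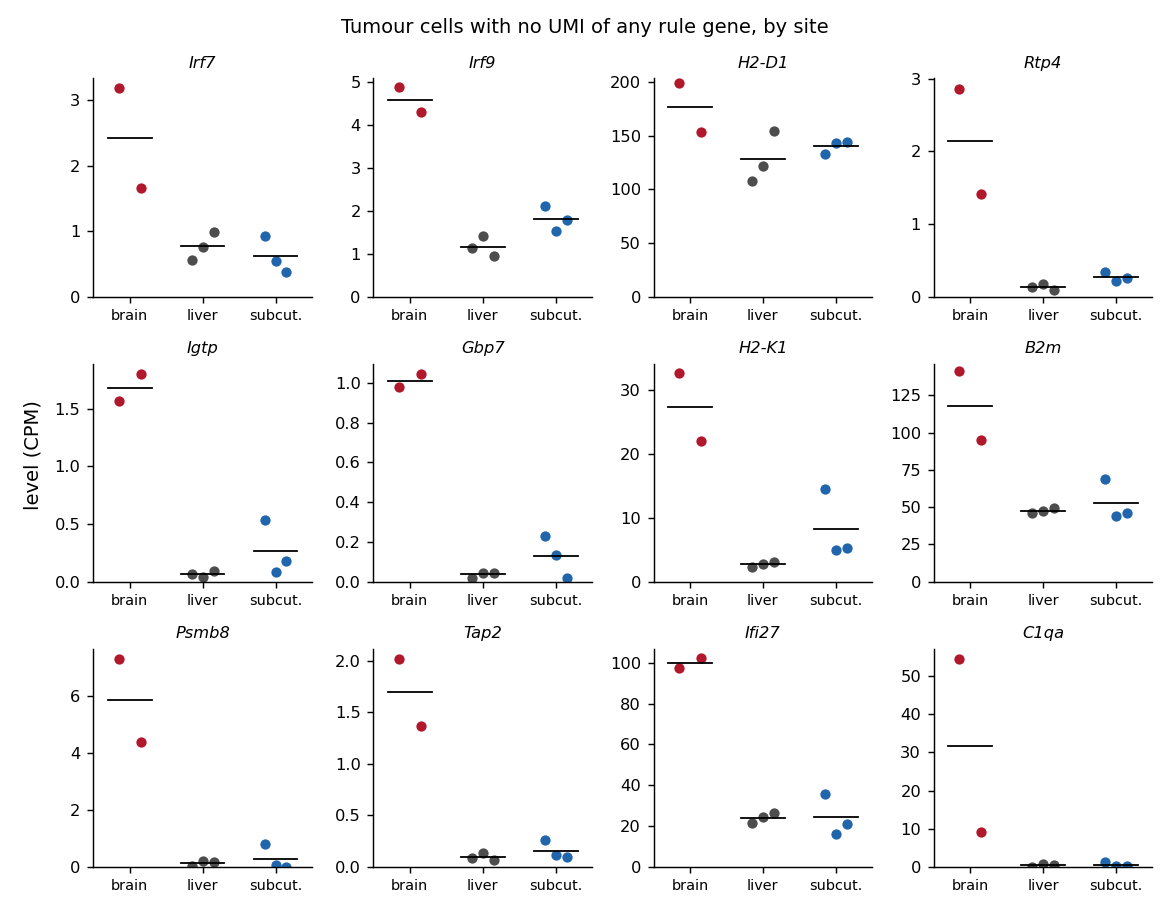
Level in CPM of 11 interferon genes and the macrophage marker C1qa in tumour cells without any UMI of the rule genes, per library (points) with the mean of each site (bars). The brain points lie above all others except for H2-D1, where liver 3 with 154.4 CPM lies just above brain 2 with 153.7 CPM.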

How the data were processed

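Counts of UMIs per gene and cell were used as the authors deposited them, in matrices that per the file headers follow Cell Ranger version 3.0.0. Cell Ranger, STAR and the mouse build mm10 are named in the submitters' processing notes, and the annotation is not given in the sources used here. The lowest deposited cell held 501 UMIs. Gene positions came from GENCODE M21 (GRCm38) for 21952 of 22056 identifiers and promoters from RefSeq.

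UMIs were summed per library and class and fitted in R 4.3.3 with edgeR 4.0.16 (TMM factors, filterByExpr, robust quasi-likelihood F tests, Benjamini-Hochberg adjustment over all genes tested, threshold 0.05). The SE is the log2 fold change over the root of F, so it too uses the spread shared across genes. In the fit of classes the typical biological coefficient of variation was 3.53%, with genes not tested holding 0.138% of UMIs. The rule genes were left untested. Classes of a library come from the same graft, so the library was a block. Across sites, replicate numbers did not pair libraries (correlations of deviations -0.12 to 0.16). Intervals of shares cover counting error only. Single named genes were the 12 in each direction with the largest log2 fold change outside the rule, past the threshold, changed alike in both brain libraries and at 10 CPM or more in the higher class of both, besides the listed genes. The members and lists were chosen with earlier results of these data known.

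Simulated data had 200 of 11575 genes changed in members. There the comparison of members with the class of 0 recovered 83% of 2-fold and 95% of 4-fold changes, with 4.30% false calls. The share of false calls among the 3853 genes called in the deposited cells was not tested. Alternatives covered DESeq2 1.42.0, other factors and filters, depth, cell thresholds and leaving out libraries. Some listed genes are counted in their lists but not reported here by name.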

Additional observations from a re-analysis of the deposited data

How the results depend on the processing

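The library, shared by the classes of a graft, is the block of the comparison of classes. Without that replicate block 942 genes were called for members against the class of 0 (3853 with it) and 8 for the middle class (1320 with it). With DESeq2 the totals were 1606 and 271, without cells with a macrophage marker UMI 1091 and 351, after thinning to 3000 UMIs 1957 and 806, and in cells without En1 or Des 1307 and 44. With members defined from 2 UMIs, the middle class gave 578. The count of interferon genes higher in members stayed within 1.5 times of 75 under each of the 14 alternatives run, at 52 to 77. Leaving out a brain library leaves no residual degrees of freedom in the fit of classes, so no such count was made. In the cells with a sum of 0, leaving out single libraries gave 16 to 49 interferon genes higher than in liver and 2 to 50 higher than in subcutaneous grafts. Where 1 brain library was left, it was assumed to vary like the other groups. With the replicate number as a block these counts were 38 and 23. Against subcutaneous grafts the count was 20 without cells with a macrophage marker UMI and 61 when all tumour cells entered. The share of members in brain was 4.48% in cells without En1 or Des, 13.1% from a sum of 2, 6.20% from a sum of 5, 15.5% for any UMI after thinning and 5.21% without Bst2, and 8.19% to 10.6% with either library left out. Of 1867 values of 128 results on single genes under the alternatives, 1659 kept direction and call, 151 lost the call, 31 gained it and 26 changed sign. Of the genes called higher in members, H2-Aa became -0.043 and H2-Eb1 -0.32 (log2 fold change) in cells with 5000 to 15000 UMIs, Ccl5 became -0.27 without cells with 3 or more macrophage markers, and Ifngr1 became -0.057 and Ifngr2 -0.12 without cells with a macrophage marker UMI. The other 21 were of genes that were not called. Without cells with a macrophage marker UMI Pmaip1 had -0.67, Bbc3 0.033 and Mki67 0.0019, and without cells with 3 or more markers Pmaip1 had -0.52 and Ifnar2 -0.12. From 0.5% eGFP and Mycl, Ifnar2 had -0.011, Pmaip1 -0.096 and Mki67 0.088. In cells without En1 or Des, Ifnar1 had -0.044 and Bax -0.047. After thinning, Bbc3 had 0.069, Pmaip1 -0.00076 and Chga 0.077, and with 5000 to 15000 UMIs Bbc3 had 0.074 and Chga 0.058. From a sum of 2, Pmaip1 had -0.13 and Mki67 0.0045, and from a sum of 5 Znfx1 had 0.33. Bax had -0.020 with no filter on low counts, and Mki67 0.0043 with RLE factors and 0.0051 with only the classes compared. The cause was not tested. Depth limits the low genes, since members rest on 2027185 and 4350914 UMIs.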
